A study of Mus musculus with 51 samples.

Results

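H3K36me3 was compared between the extra-embryonic ectoderm (ExE) and the epiblast of wild-type mouse embryos at embryonic day 6.5. The members were the 8 wild-type H3K36me3 libraries, 4 from epiblast and 4 from ExE, out of 12 H3K36me3 libraries and 51 libraries in the series. They were chosen by antibody, genotype and tissue in the sample labels. All 8 came from reciprocal hybrid crosses of C57BL6/Babr and CAST/Ei mice, with 2 libraries per tissue from B6/CAST and 2 from CAST/B6, where the mother's strain is written first. Each library was made by native low-input ChIP on micrococcal nuclease-digested chromatin from a pool of 4 epiblasts or 8 ExE, about 2500 cells, after the tissues had been separated by hand. The remaining 4 H3K36me3 libraries were from matDKO/CAST embryos, whose C57BL6/Babr/129 mothers had lost Dnmt3a and Dnmt3b in the oocyte through floxed alleles and Zp3-driven Cre. These embryos were heterozygous for both deletions, had CAST/Ei fathers, and were used here as libraries outside the main comparison.

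H3K36me3 is laid down mainly by SETD2, which travels with elongating RNA polymerase II, so the mark lies over the bodies of transcribed genes and increases towards their 3' ends. It is read by proteins with PWWP domains, among them the de novo DNA methyltransferases DNMT3A and DNMT3B. NSD1 and NSD2, which write the dimethyl form, act in gene bodies and between genes. The epiblast gives rise to the embryo proper. The ExE is the trophoblast tissue that faces it, is fed by FGF signals from the epiblast, sends BMP4 back and later contributes to the placenta. Both tissues are wrapped by the visceral endoderm at this stage, an absorptive layer that secretes apolipoproteins and takes up maternal nutrients.

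The mark was read as RPKM, reads scaled to window length in kilobases and to library size, in 1 kb windows. The windows were averaged over regions and over gene bodies. Regions were the union of the peaks that the authors had called in the 4 combinations of cross and tissue. This union held 24202 autosomal regions that covered 483 Mb, or 19.6% of the window length, and 80.1% of their bases lay in annotated genes. Gene bodies were autosomal protein-coding and long non-coding genes of at least 2000 bp with at least 20% of their length inside a region, which left 12635 of 27030 genes. The peaks came from the same libraries that were then compared, so the presence of a peak in only 1 tissue is not independent evidence of a difference. Differences are given as ExE minus epiblast on the log2(RPKM + 0.5) scale, which understates the change of low values, after each library was centred on its median over the regions. They were tested with limma, a linear model with a shared spread estimate, with Benjamini-Hochberg adjustment over all regions or all gene bodies, and a call means an adjusted p under 0.05.

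Some libraries stood apart before any comparison was made. The depth behind the windows was 4.49 to 12.6 M reads in epiblast and 6.97 to 9.71 M reads in ExE, so that 1 read in a window was worth 0.0794 to 0.223 RPKM and 0.103 to 0.143 RPKM. Over the regions, Pearson correlations were 0.844 to 0.912 within ExE, 0.498 to 0.845 within epiblast and 0.391 to 0.656 between tissues. Replicates of the same cross correlated at 0.845 (CAST/B6) and 0.670 (B6/CAST) in epiblast and at 0.877 and 0.912 in ExE. Epiblast replicates were thus less alike than ExE replicates, above all in B6/CAST. The CAST/B6 epiblast libraries correlated at 0.627 to 0.656 with ExE libraries and at 0.498 to 0.645 with B6/CAST epiblast libraries. The B6/CAST epiblast peak list held 2.64% of its peaks on chromosome 11 and 3.69% on chromosome 3, against 5.71 to 6.74% and 5.48 to 6.50% in the other lists. In the kilobase ahead of gene starts, where H3K36me3 is normally depleted, both CAST/B6 ExE libraries had 0.637 and 0.621 RPKM against 0.356 to 0.423 RPKM in the other 6 wild-type libraries. The labels do not say whether an epiblast and an ExE pool with the same number came from the same embryos, and p-values measure the spread between these pools. Since these were bulk pools, fewer cells carrying the mark and less mark per cell cannot be told apart.

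The share of signal inside the regions was higher in ExE. It was 40.2% and 33.6% in B6/CAST epiblast and 43.5% and 42.7% in CAST/B6 epiblast. In ExE it was 56.9% and 53.0% in B6/CAST and 43.6% and 45.2% in CAST/B6. The lowest ExE library therefore lay just above the highest epiblast library, and the means were 40.0% ± 4.51 and 49.7% ± 6.34 (SD, n = 4 each). The difference of 9.68 percentage points had p = 0.0286 in a two-sided exact permutation test, which is the smallest value that 4 against 4 libraries can give. The B6/CAST libraries differed by 18.1 points between tissues and the CAST/B6 libraries by 1.31 points, so most of the difference lay in 1 cross. Leaving out any epiblast library or B6/CAST ExE replicate 1 took the exact p above 0.05, with differences of 7.27 to 10.8 points. In matDKO/CAST the share was 37.9% in epiblast and 46.8% in ExE (means of 2). The 10 wild-type inputs had 22.2 to 23.2% of their signal inside the regions.

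**Figure D1:**
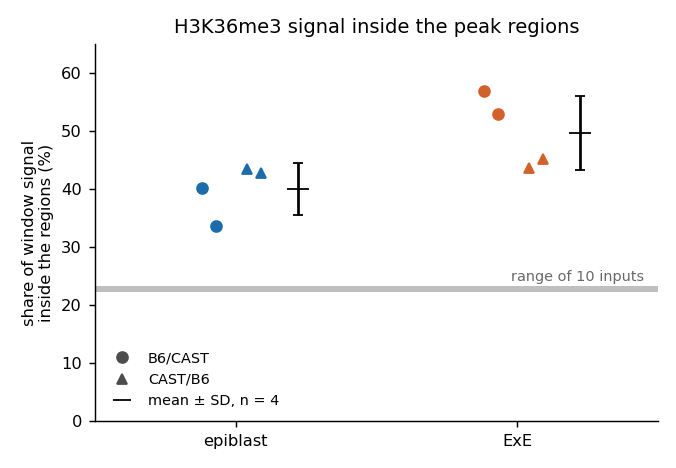
Share of autosomal window signal (%, y axis) inside the H3K36me3 regions for each wild-type library of epiblast and ExE (x axis), with circles for B6/CAST, triangles for CAST/B6 and black marks for the mean ± SD (n = 4). ExE libraries lie at 43.6 to 56.9%, epiblast libraries at 33.6 to 43.5%, and the grey band of the 10 inputs at 22.2 to 23.2%.

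H3K36me3 increased from the start to the end of genes in every library. Over 6254 tested genes of at least 20 kb, the log2 ratio of the last to the first 10% of the body (median over genes) was 0.31 ± 0.06 in epiblast and 0.42 ± 0.12 in ExE (SD, n = 4 each). The ratio was 0.39 and 0.25 in B6/CAST epiblast, 0.33 and 0.29 in CAST/B6 epiblast, 0.53 and 0.52 in B6/CAST ExE, and 0.30 and 0.34 in CAST/B6 ExE. The groups overlapped, and the difference of 0.11 was not past the threshold (two-sided exact permutation p = 0.171). The B6/CAST libraries differed by 0.21 and those of CAST/B6 by 0.0072. Mean signal in the first twentieth of the body was 0.504 to 0.606 RPKM in epiblast and 0.625 to 0.740 RPKM in ExE, and in the last twentieth it was 0.860 to 1.12 RPKM and 1.22 to 1.64 RPKM.

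**Figure D2:**
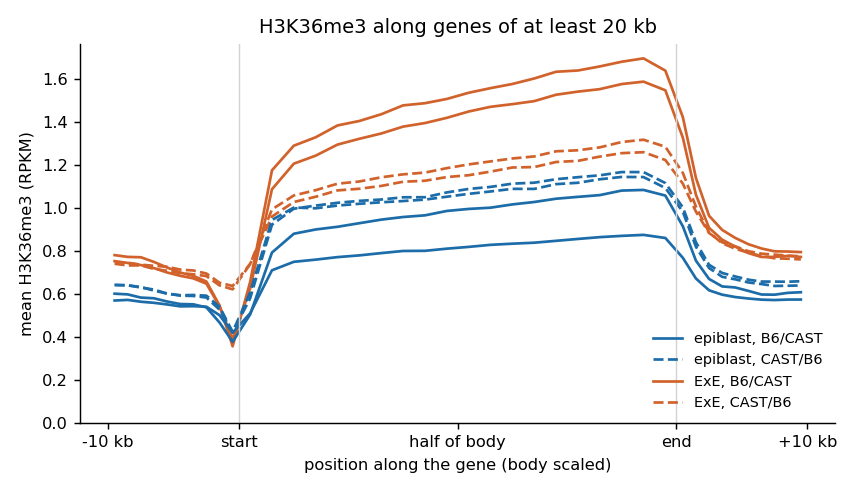
Mean H3K36me3 (RPKM, y axis) along 6254 genes of at least 20 kb, with the body scaled from start to end and 10 kb on either side (x axis), 1 line per wild-type library, blue for epiblast, orange for ExE, solid for B6/CAST and dashed for CAST/B6. ExE lines end at 1.22 to 1.64 RPKM and epiblast lines at 0.860 to 1.12 RPKM in the last twentieth of the body, and the dashed ExE lines dip least ahead of the start.

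The gene bodies as a whole carried more of the mark, relative to all regions, in ExE. Their median difference was 0.44, and 10367 of 12635 gene bodies (82%) were called higher in ExE while 411 (3.25%) were called higher in epiblast. All 4 ExE libraries lay above all 4 epiblast libraries in 66.3% of gene bodies, and the reverse held in 2.07%. When genes were ordered by mean RPKM and divided into 5 equal sets, the median difference went from 0.25 in the lowest set to 0.55 in the highest. The median was 0.29 without centring, 0.63 with a pseudocount of 0.1 and 0.81 in limma-voom on recovered reads, which are other scales. A difference near 0.44 therefore describes the average gene on the scale used here, and genes and lists are read below against that value, and list counts against the shares of all gene bodies called. With each library centred on its median over gene bodies, an alternative added after the data were seen, 15.1% were called higher in ExE (1904 genes) and 21.2% higher in epiblast (2680 genes). After quantile normalization these shares were 16.3% and 18.4%. The share of calls that were higher in ExE thus went from 96.2% to 41.5% and 47.0%. In the same gene bodies the inputs gave 0 calls in limma, with 843 at an unadjusted p under 0.05, and their median difference was -0.01.

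The 10 gene bodies with the largest excess in epiblast, among named genes whose samples did not overlap and whose higher mean was at least 1 RPKM, were Fgf5, Glyatl3, Platr10, Pmaip1, Lbh, Uchl1, Dact1, Cxcl12, Rragd and Sall2, at -1.04 to -0.64. The 10 with the largest excess in ExE were Apob, Cubn, Id2, Peg10, Zfp977, Tbx3, Slc13a4, Mir22hg, Abcc2 and Sfmbt2, at 1.26 to 1.79. These were chosen for their size in this contrast, from 48 genes higher in epiblast and 5045 higher in ExE that met the other conditions. All 20 were called in the same direction in the quantile-normalized fit and in the fit centred on gene bodies. In matDKO/CAST, which took no part in the choice, all 10 genes of ExE and 8 of the 10 of epiblast were called in the same direction. Of all gene bodies, 46.7% were called higher in ExE and 1.82% higher in epiblast there. Dact1 and Cxcl12 were the exceptions at -0.32 (adjusted p = 0.056) and -0.41 (adjusted p = 0.113).

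Promoter sequences are shown for the first 2 of these genes in each direction that had 1 RefSeq promoter and whose promoter H3K4me3 differed the same way, so that the sequence stands beside a measured promoter difference. Of the 20 genes, 17 had a RefSeq promoter and 15 had a single one. Each line holds the 250 bases ahead of the RefSeq start (GRCm38.p6), 5' to 3' on the gene's strand. Capitals mark matches on either strand to any of 4 motifs. These were the TATA box with the letters TATAAA, the POU octamer with the letters ATGCAAAT, the TFAP2 motif with the letters GCCNNNGGC and the GATA motif with the letters AGATAA. Apob lies at chr12:7977427-7977676 on the plus strand, Cubn at chr2:13491877-13492126 on the minus strand, Fgf5 at chr5:98253934-98254183 on the plus strand and Platr10 at chr3:75655732-75655981 on the minus strand.
Apob: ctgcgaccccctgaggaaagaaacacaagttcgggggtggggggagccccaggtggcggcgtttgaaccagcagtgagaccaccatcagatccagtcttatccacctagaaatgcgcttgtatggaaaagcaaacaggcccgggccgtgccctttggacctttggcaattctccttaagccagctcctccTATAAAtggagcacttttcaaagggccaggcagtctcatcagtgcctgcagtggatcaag
Cubn: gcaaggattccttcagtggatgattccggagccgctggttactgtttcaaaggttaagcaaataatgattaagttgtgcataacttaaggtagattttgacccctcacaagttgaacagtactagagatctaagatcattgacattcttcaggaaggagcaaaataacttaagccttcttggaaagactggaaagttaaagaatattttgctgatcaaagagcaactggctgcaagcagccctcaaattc
Fgf5: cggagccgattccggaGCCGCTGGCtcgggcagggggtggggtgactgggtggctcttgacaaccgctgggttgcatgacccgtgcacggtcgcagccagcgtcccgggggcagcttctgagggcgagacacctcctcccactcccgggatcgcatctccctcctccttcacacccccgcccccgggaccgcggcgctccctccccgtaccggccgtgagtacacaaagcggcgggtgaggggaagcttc
Platr10: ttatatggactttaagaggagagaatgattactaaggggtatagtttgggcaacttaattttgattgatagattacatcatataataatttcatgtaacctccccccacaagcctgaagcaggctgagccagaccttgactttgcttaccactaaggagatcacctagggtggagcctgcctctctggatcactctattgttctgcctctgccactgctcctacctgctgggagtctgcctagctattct
The Apob window held a TATA box that began at position -60 from the start, 7 CpGs and 55.2% G and C. The Cubn window held 2 CpGs and 39.6% G and C. The Fgf5 window, with 24 CpGs and 70.8% G and C, held a TFAP2 motif that began at position -234. The Platr10 window held 0 CpGs and 44.8% G and C. Among 32817 RefSeq promoters of this length, 12.4% held the TATA box, 1.60% the octamer, 13.7% the TFAP2 motif and 9.99% the GATA motif.

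Fgf5, a growth factor that marks the epiblast after implantation, had the largest excess in epiblast. Its body (chr5:98254184-98277030) carried 2.91 and 2.13 RPKM in B6/CAST epiblast and 1.74 and 1.99 RPKM in CAST/B6 epiblast, against 0.745, 1.03, 0.495 and 0.476 RPKM in the ExE libraries in the same order. Every epiblast library lay above every ExE library, and the difference was -1.04 ± 0.09 (SE; adjusted p = 4.81e-05). At its promoter H3K4me3 was 42.8 RPKM in epiblast and 16.6 RPKM in ExE, while H3K27me3 was 0.573 and 1.76 RPKM (both called). Glyatl3, a glycine N-acyltransferase-like gene (chr17:40904618-40914350), had 1.94, 0.935, 2.15 and 2.07 RPKM in epiblast and 0.387 to 0.552 RPKM in ExE (-1.01 ± 0.14, adjusted p = 0.000218). Its promoter H3K4me3 was 0.170 and 0.169 RPKM, close to nothing in either tissue. Platr10, a long non-coding RNA gene named for its expression in pluripotent cells (chr3:75647446-75655731), had 1.53, 1.36, 1.11 and 1.29 RPKM in epiblast and 0.351 to 0.470 RPKM in ExE (-0.87 ± 0.06, adjusted p = 3.01e-05).

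The other leading genes of the epiblast included regulators of death, growth and signalling. Pmaip1, which encodes the pro-apoptotic protein NOXA, had 1.87 to 3.45 RPKM in epiblast and 0.962 to 1.43 RPKM in ExE (-0.85 ± 0.10, adjusted p = 0.000118). Lbh, a transcriptional cofactor, had 1.15 to 1.55 RPKM and 0.460 to 0.523 RPKM. Uchl1, a ubiquitin hydrolase, had 0.990 to 1.47 RPKM and 0.331 to 0.561 RPKM. For Dact1, which binds Dishevelled in the Wnt pathway, the ranges were 1.43 to 2.60 RPKM in epiblast and 0.747 to 1.12 RPKM in ExE. Those of the chemokine gene Cxcl12 were 0.979 to 1.29 and 0.338 to 0.519 RPKM, and those of Rragd, a GTPase of amino acid sensing by mTORC1, were 1.12 to 1.89 and 0.610 to 0.727 RPKM. Sall2, a zinc finger transcription factor, had 1.07 to 1.65 RPKM in epiblast and 0.449 to 0.746 RPKM in ExE. In none of the 10 did the tissues overlap, as the choice required.

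The epiblast and pluripotency list had 26 of its 30 genes tested. Of these, 9 were called higher in epiblast and 8 higher in ExE, beside 3.25% and 82% of all gene bodies, and 9 were not called. Their median was 0.05 against 0.44 over all gene bodies. With centring on gene bodies 15 were higher in epiblast and 1 in ExE, and after quantile normalization 19 and 2. The 9 genes called higher in epiblast were Fgf5, Sall2, Otx2, Pou5f1, Fst, Tdgf1, Nanog, Nodal and Lin28b. Pou5f1, which encodes the pluripotency factor OCT4, had 1.07 and 1.05 RPKM in B6/CAST epiblast and 1.23 and 1.25 RPKM in CAST/B6 epiblast. In ExE it had 0.461, 0.544, 0.446 and 0.561 RPKM, so the tissues did not overlap (-0.57 ± 0.06, adjusted p = 6.51e-05). Otx2, a homeobox factor of anterior epiblast, had 0.834 to 1.25 RPKM in epiblast and 0.274 to 0.473 RPKM in ExE (-0.64 ± 0.10, adjusted p = 0.000437). Nanog, a homeobox pluripotency factor, had 1.16 to 1.80 RPKM in epiblast and 0.691 to 0.888 RPKM in ExE (-0.44 ± 0.06, adjusted p = 0.000294). The RNA-binding let-7 inhibitor Lin28b had 0.751 to 0.912 and 0.466 to 0.567 RPKM (-0.26 ± 0.06, adjusted p = 0.0027).

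For some genes of the epiblast the call depended on the scaling. Zic2, a zinc finger factor of the epiblast, had 3.16, 2.23, 1.40 and 3.30 RPKM in epiblast and 2.27, 2.22, 0.854 and 1.14 RPKM in ExE. The ranges overlapped, and its difference of -0.38 ± 0.20 was not called (adjusted p = 0.107), but it was called higher in epiblast at -0.82 centred on gene bodies (adjusted p = 0.0143) and -0.96 after quantile normalization (adjusted p = 0.00769). The de novo methyltransferase gene Dnmt3b was called higher in ExE at 0.39 ± 0.10 (adjusted p = 0.00785), but its value was -0.048 when centred on gene bodies and -0.15 after quantile normalization, and the tissues overlapped with 1.96 to 2.93 RPKM in epiblast and 2.33 to 3.79 RPKM in ExE. Of 12 primitive streak genes 8 were tested, with a median of -0.03. Of these, 2 were called higher in epiblast, Sp5 and Cdh2, and 0 higher in ExE, beside 3.25% and 82% of all gene bodies. In both other scalings 7 were higher in epiblast. Mixl1, a homeobox gene of the streak, was among these at -0.42 centred on gene bodies, but had 0.02 ± 0.11 (adjusted p = 0.892) as centred on regions.

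Trophoblast genes lay in the opposite direction. Of 28 trophoblast and ExE genes 27 were tested, and 25 were called higher in ExE and 1 higher in epiblast, beside 82% and 3.25% of all gene bodies, with a median of 0.75. Relative to the median gene body, 14 were higher in ExE and 4 in epiblast (15.1% and 21.2% of all), and after quantile normalization 17 and 4 (16.3% and 18.4% of all). Cdx2, the homeobox factor of trophoblast stem cells (chr5:147300805-147307270), had 0.333, 0.420, 0.542 and 0.445 RPKM in epiblast and 1.47, 1.26, 1.45 and 1.36 RPKM in ExE, with B6/CAST given first. The tissues were well apart, and the difference was 1.16 ± 0.07 (adjusted p = 3.01e-05). Elf5, an ETS factor of the same stem cells (chr2:103411688-103450989), had 0.483, 0.434, 0.460 and 0.326 RPKM in epiblast and 1.30, 0.958, 0.977 and 1.12 RPKM in ExE (0.93 ± 0.08, adjusted p = 4.37e-05). Sfmbt2, a Polycomb-type gene that trophoblast needs (chr2:10370510-10595253), had 0.432 to 0.470 RPKM in epiblast and 1.32 to 1.80 RPKM in ExE. Its difference of 1.26 ± 0.04 had the smallest standard error of the 20 leading genes (adjusted p = 2.92e-05).

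Further factors of the trophoblast followed. Tead4, the Hippo pathway factor needed for trophectoderm, had 0.478 to 0.584 RPKM in epiblast and 1.28 to 1.76 RPKM in ExE (1.06 ± 0.05, adjusted p = 3.01e-05). The AP-2 factor gene Tfap2c had 0.405 to 0.559 and 1.02 to 1.65 RPKM (0.95 ± 0.11, adjusted p = 0.000115). Id2, an inhibitor of bHLH factors, had 0.246, 0.587, 0.744 and 0.904 RPKM in epiblast and 2.71, 1.66, 2.09 and 2.69 RPKM in ExE (1.48 ± 0.17, adjusted p = 0.000104). Its standard error was the largest of the 10 leading ExE genes. Eomes, a T-box factor used by the ExE and by the posterior epiblast, had 1.52 to 2.17 RPKM in epiblast and 1.57 to 2.72 RPKM in ExE. Its ranges overlapped, and its call of 0.31 ± 0.09 (adjusted p = 0.00937) became -0.12 when centred on gene bodies and -0.24 after quantile normalization. The FGF feedback inhibitor Spry4 was not called at 0.13 ± 0.07 (adjusted p = 0.117), with -0.31 centred on gene bodies and -0.40 after quantile normalization. Tcf7l1, a transcriptional repressor of the Wnt pathway, was the gene called higher in epiblast at -0.15 ± 0.05 (adjusted p = 0.0205).

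Of 18 genes of later trophoblast, 7 were tested and 6 were called higher in ExE, a share near the 82% of all gene bodies, with a median of 0.85, while the other 11 had less than 20% of their length in regions, were too short or were not autosomal. They included Igf2, a fetal growth factor, with 0.301 to 0.536 RPKM in epiblast and 1.07 to 1.91 RPKM in ExE (1.13 ± 0.11, adjusted p = 6.97e-05). Hand1, a bHLH factor of giant cells, had 0.337, 0.713, 0.464 and 0.218 RPKM in epiblast and 1.05, 0.751, 1.25 and 1.42 RPKM in ExE (0.95 ± 0.15, adjusted p = 0.000518). Its highest epiblast and lowest ExE values nearly met. Peg10, a retrotransposon-derived gene needed in the placenta, had 0.555 to 0.809 RPKM in epiblast and 1.89 to 3.18 RPKM in ExE (1.42 ± 0.08, adjusted p = 3.01e-05). Cdkn1c, a cell cycle inhibitor, was not called at -0.18 ± 0.11 (adjusted p = 0.16), but was called higher in epiblast at -0.62 centred on gene bodies (adjusted p = 0.00559) and -0.43 after quantile normalization (adjusted p = 0.0318). Of the 7, 5 were higher in ExE and 2 in epiblast when centred on gene bodies, against 4 and 1 after quantile normalization.

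**Figure D3:**
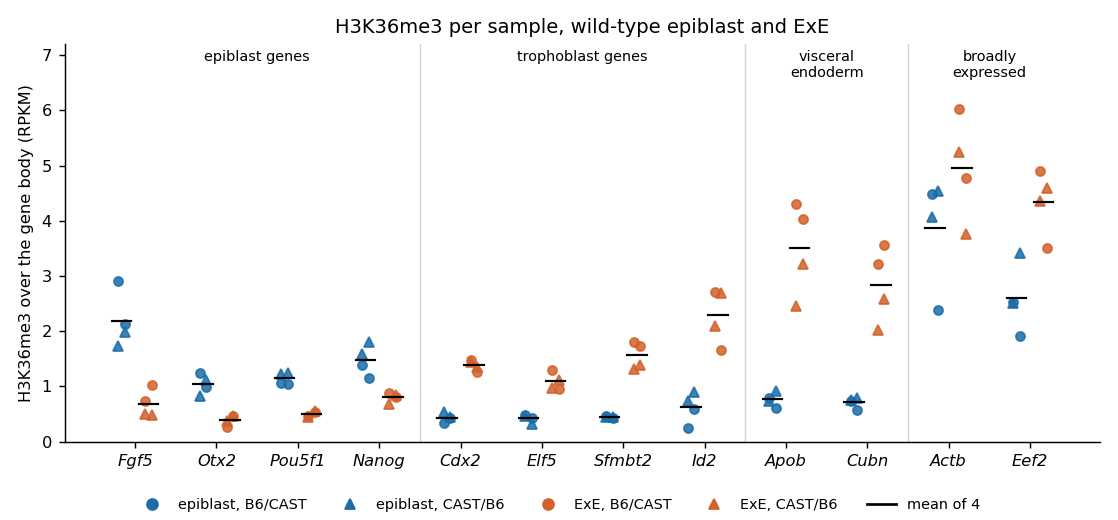
H3K36me3 over the gene body (RPKM, y axis) of 12 genes (x axis) in each wild-type library, blue for epiblast, orange for ExE, circles for B6/CAST, triangles for CAST/B6 and black bars for the mean of 4. Epiblast genes lie higher in blue, with Fgf5 at 1.74 to 2.91 against 0.476 to 1.03 RPKM, trophoblast and visceral endoderm genes higher in orange, and the ranges of the broadly expressed gene Actb overlap.

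Visceral endoderm genes were higher in the ExE libraries, and the largest difference of all named genes lay among them. Of 24 genes 20 were tested, with a median of 0.90. Of these, 19 were called higher in ExE and 0 higher in epiblast, beside 82% and 3.25% of all gene bodies. When centred on gene bodies 18 were called higher in ExE and 1 higher in epiblast (15.1% and 21.2% of all). The counts were the same after quantile normalization (16.3% and 18.4% of all). Apob, the main protein of the lipoproteins that this layer secretes (chr12:7977648-8016835), had 0.796, 0.613, 0.746 and 0.914 RPKM in epiblast and 4.31, 4.03, 2.45 and 3.22 RPKM in ExE. No library of one tissue reached the range of the other (1.79 ± 0.09, adjusted p = 2.98e-05). Cubn, which encodes the endocytic receptor cubilin (chr2:13276338-13491813), had 0.729, 0.565, 0.751 and 0.800 RPKM in epiblast and 3.21, 3.55, 2.02 and 2.59 RPKM in ExE (1.59 ± 0.08, adjusted p = 2.98e-05). In both genes the B6/CAST ExE libraries were higher than those of CAST/B6.

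The transport protein gene Ttr had 0.562 to 0.828 RPKM in epiblast and 1.37 to 1.88 RPKM in ExE (1.01 ± 0.08, adjusted p = 3.61e-05). The endoderm transcription factor gene Hnf4a had 0.350 to 0.411 RPKM in epiblast and 0.838 to 1.09 RPKM in ExE (0.91 ± 0.07, adjusted p = 3.53e-05). Afp, the alpha-fetoprotein gene, had 0.511 to 0.557 and 0.993 to 1.30 RPKM (0.77 ± 0.06, adjusted p = 3.53e-05). Cer1, a secreted Nodal inhibitor of the anterior visceral endoderm, was the gene not called, at -0.19 ± 0.13 (adjusted p = 0.189), and was the gene called higher in epiblast in the other scalings, at -0.63 centred on gene bodies (adjusted p = 0.00907) and -0.52 after quantile normalization (adjusted p = 0.0438). Sox17 was called higher in ExE at 0.39 ± 0.11 (adjusted p = 0.00871), but its RPKM ranges overlapped and its value was -0.051 when centred on gene bodies.

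The summed level of the 20 tested visceral endoderm genes was 10.7 to 15.0 RPKM in epiblast and 23.8 to 34.4 RPKM in ExE, so the markers of this layer moved with the tissue, and their part in the other differences was not tested. For comparison, the summed level of the 27 trophoblast genes was 18.3 to 22.9 RPKM in epiblast and 32.9 to 43.2 RPKM in ExE. Of 14 parietal endoderm and basement membrane genes 11 were tested. Of these, 10 were called higher in ExE and Fst higher in epiblast, beside 82% and 3.25% of all gene bodies. The 11 had a median of 0.64 and a summed level of 7.83 to 11.5 RPKM in epiblast and 12.4 to 15.7 RPKM in ExE. They included the laminin gene Lama1 (0.62 ± 0.05, adjusted p = 3.9e-05), the collagen gene Col4a1 (0.64 ± 0.05, adjusted p = 3.53e-05) and Sparc, a matrix protein gene (0.78 ± 0.06, adjusted p = 4.06e-05). In either of the other scalings 7 of the 11 were higher in ExE and 1 in epiblast. All gene bodies gave 15.1% and 21.2% when centred on gene bodies, and 16.3% and 18.4% after quantile normalization. Of 16 blood, endothelium and decidua genes 3 were tested, while 10 had less than 20% of their length in regions and 3 were too short or not autosomal. All 3 tested genes were called higher in ExE at a median of 0.41, near that of all genes, with 0 calls in the other 2 scalings and summed levels of 1.53 to 2.01 RPKM in epiblast and 1.91 to 2.58 RPKM in ExE.

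Of the Nodal and BMP pathway list, 23 of 26 genes were tested, 18 were called higher in ExE and 3 higher in epiblast, beside 82% and 3.25% of all gene bodies, with a median of 0.43. The counts were 5 and 6 when centred on gene bodies, and after quantile normalization 6 and 7. The 3 genes higher in epiblast were the ligand Nodal (0.679 to 1.22 RPKM in epiblast and 0.358 to 0.680 RPKM in ExE; -0.34 ± 0.08, adjusted p = 0.00386), its co-receptor Tdgf1 (1.26 to 1.58 and 0.591 to 0.947 RPKM; -0.45 ± 0.09, adjusted p = 0.00207) and its extracellular inhibitor Lefty2 (0.758 to 1.31 and 0.351 to 0.754 RPKM; -0.45 ± 0.05, adjusted p = 9.93e-05). Bmp4, the ligand sent by the ExE, had 0.544, 0.415, 0.422 and 0.352 RPKM in epiblast and 1.09, 0.979, 1.10 and 1.11 RPKM in ExE (0.90 ± 0.05, adjusted p = 3.01e-05). Smad6 and Smad7, which encode inhibitory SMADs induced by BMP and TGF-beta signals, had differences of 1.09 ± 0.06 (adjusted p = 3.01e-05) and 1.05 ± 0.08 (adjusted p = 3.68e-05). In all 3 no epiblast library reached an ExE library.

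In the FGF and ERK pathway, 23 of 25 genes were tested, 19 were called higher in ExE and 1, the ligand gene Fgf5, higher in epiblast, with a median of 0.48, so that the count and the median were close to the 82% and 0.44 of all gene bodies. When centred on gene bodies 5 were higher in ExE and 7 in epiblast, and after quantile normalization 6 and 6. The receptor genes Fgfr3 and Fgfr4 had 0.360 to 0.423 and 0.384 to 0.523 RPKM in epiblast, and 0.816 to 1.08 and 0.952 to 1.72 RPKM in ExE. Their differences were 0.84 ± 0.05 (adjusted p = 3.01e-05) and 0.96 ± 0.08 (adjusted p = 4.41e-05). Gab1, an adaptor downstream of receptor tyrosine kinases, had 0.555 to 0.621 RPKM in epiblast and 1.14 to 1.58 RPKM in ExE (0.88 ± 0.05, adjusted p = 3.01e-05).

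Wnt pathway genes had a median of 0.11, below that of all gene bodies. Of 26 genes 24 were tested, with 11 called higher in ExE and 4 higher in epiblast, beside 82% and 3.25% of all gene bodies. Centring on gene bodies gave 0 and 14, and quantile normalization 3 and 15. The 4 higher in epiblast were Lef1, Sp5, Sfrp1 and Tcf7l1. Lef1, a nuclear effector of the pathway, had 1.40, 1.08, 1.94 and 1.89 RPKM in epiblast and 0.665, 0.695, 0.833 and 0.806 RPKM in ExE, with no overlap (-0.57 ± 0.05, adjusted p = 5.92e-05). The secreted inhibitor gene Sfrp1 had 0.536 to 0.680 and 0.274 to 0.419 RPKM (-0.25 ± 0.06, adjusted p = 0.00505). The ligand genes Wnt6 and Wnt7b lay the other way, with 0.276 to 0.443 and 0.248 to 0.387 RPKM in epiblast and 0.547 to 0.902 and 0.568 to 0.830 RPKM in ExE (0.68 ± 0.11, adjusted p = 0.000548 and 0.70 ± 0.09, adjusted p = 0.000206). Both kept their sign after quantile normalization (0.41 and 0.45) and when centred on gene bodies (0.24 and 0.26), where neither was called.

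The genes of the H3K36 methylation machinery itself lay near the average gene. All 22 genes were tested, with a median of 0.51. Of these, 21 were called higher in ExE and 1 higher in epiblast, beside 82% and 3.25% of all gene bodies. Relative to the median gene body 4 were higher in ExE and 2 in epiblast (15.1% and 21.2% of all). After quantile normalization these counts were 2 and 4 (16.3% and 18.4% of all). Setd2, which encodes the writer of H3K36me3, had 1.81, 1.35, 1.94 and 1.84 RPKM in epiblast and 3.09, 2.84, 2.08 and 2.20 RPKM in ExE (0.59 ± 0.07, adjusted p = 0.000137). Nsd1, which encodes a writer of H3K36me2, had a difference of 0.57 ± 0.07 (adjusted p = 0.000159). Neither gene was called when centred on gene bodies. Phf19, a Polycomb cofactor that binds H3K36me3, had 0.251 to 0.308 RPKM in epiblast and 0.532 to 0.852 RPKM in ExE (0.76 ± 0.07, adjusted p = 5.42e-05) and was called higher in ExE in all 3 scalings. Kdm2b, a CpG island-binding demethylase, was the gene higher in epiblast, with 0.905 to 1.19 and 0.690 to 0.848 RPKM (-0.16 ± 0.05, adjusted p = 0.0199). Zmynd11, a reader of H3K36me3, was called higher in ExE at 0.22 ± 0.05 (adjusted p = 0.00189) but stood at -0.21 centred on gene bodies and -0.20 after quantile normalization.

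Of 12 DNA methylation genes, 11 were called higher in ExE and 0 higher in epiblast, beside 82% and 3.25% of all gene bodies. Their median was 0.40. In each of the other 2 scalings 3 were higher in epiblast and 0 in ExE. All gene bodies gave 21.2% and 15.1% there when centred on gene bodies, and 18.4% and 16.3% after quantile normalization. The maintenance methyltransferase gene Dnmt1 had 1.07 to 1.33 RPKM in epiblast and 1.61 to 1.89 RPKM in ExE (0.52 ± 0.05, adjusted p = 8.13e-05), and Dnmt3l, the cofactor of de novo methylation, had 0.377 to 0.610 and 0.654 to 0.847 RPKM (0.49 ± 0.07, adjusted p = 0.000355). Neither was called when centred on gene bodies, at 0.081 and 0.049. Dnmt3a was the gene not called, at 0.04 ± 0.05 (adjusted p = 0.397), and it was called lower in ExE at -0.40 centred on gene bodies and -0.31 after quantile normalization.

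Housekeeping and metabolic lists were read beside all gene bodies, of which 82% were called higher in ExE and 3.25% higher in epiblast (median 0.44). Those shares were 15.1% and 21.2% centred on gene bodies and 16.3% and 18.4% after quantile normalization. The medians of the ribosomal and broadly expressed lists lay above 0.44. Of 31 large ribosomal subunit genes 29 were called higher in ExE (median 0.62), and of 15 tested broadly expressed genes 15 were (median 0.62), with 5 of each higher in ExE and 0 higher in epiblast when centred on gene bodies, and 4 and 3 after quantile normalization. The translation factor gene Eef2 had 1.92 to 3.42 RPKM in epiblast and 3.50 to 4.90 RPKM in ExE. Actb, which encodes beta-actin, had 2.39 to 4.54 and 3.76 to 6.02 RPKM (0.48 ± 0.18, adjusted p = 0.0338), with 0.044 centred on gene bodies and -0.047 after quantile normalization. Of 18 glycolysis genes 17 were higher in ExE (median 0.47), 2 in each direction when centred on gene bodies and 3 and 1 after quantile normalization. The exception was Ldhb, a lactate dehydrogenase subunit gene, with 1.50 to 2.33 RPKM in epiblast and 0.892 to 1.23 RPKM in ExE (-0.54 ± 0.08, adjusted p = 0.000349). Of 19 cholesterol synthesis genes 15 were higher in ExE and 1 in epiblast (median 0.29), against 0 and 6 centred on gene bodies and 1 and 8 after quantile normalization. That gene was Idi1, the isopentenyl diphosphate isomerase gene (-0.34 ± 0.07, adjusted p = 0.00295).

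**Figure D4:**
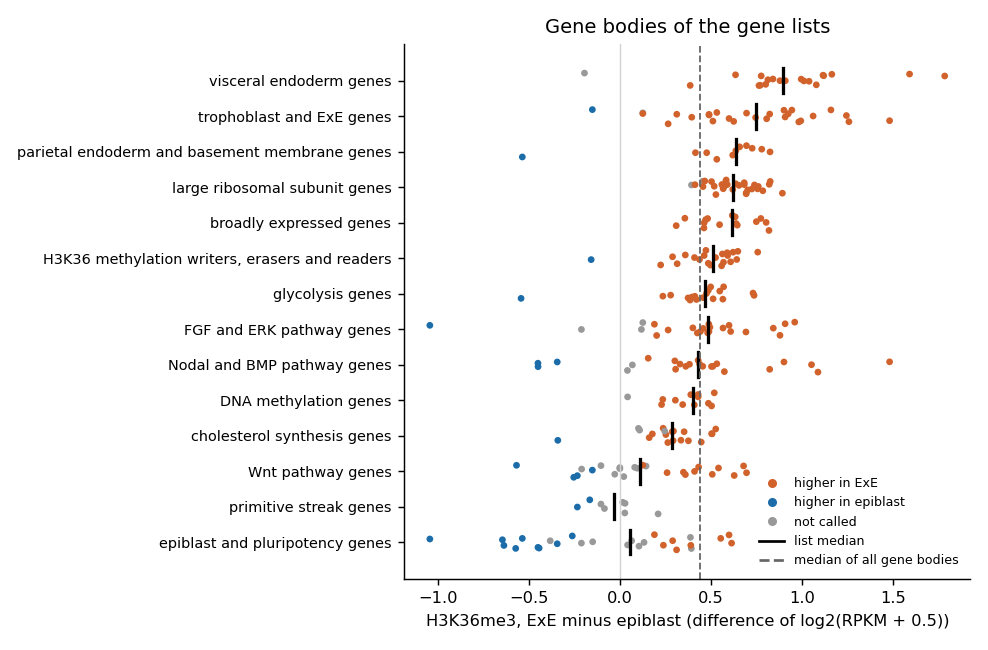
Difference of log2(RPKM + 0.5), ExE minus epiblast (x axis), for the tested gene bodies of 14 gene lists (y axis), 1 point per gene, orange where called higher in ExE, blue where called higher in epiblast, grey where not called, with a black bar at each list's median. The visceral endoderm (0.90) and trophoblast (0.75) medians lie right of the dashed median of all gene bodies (0.44), and the epiblast (0.05), streak (-0.03) and Wnt (0.11) medians lie left of it.

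A subset of 7 genes, taken from those that the study classed as non-canonically imprinted in ExE, was also read in total signal. The study chose them on libraries of this series, so the list is not independent evidence of its direction. Of 7 genes, 6 were called higher in ExE and 0 higher in epiblast, beside 82% of all gene bodies, with a median of 0.59, and 3 and 1 when centred on gene bodies, against 5 and 1 after quantile normalization. Sfmbt2 led, followed by Jade1, a subunit gene of a histone acetyltransferase complex, with 0.922 to 1.25 RPKM in epiblast and 1.89 to 2.90 RPKM in ExE (0.97 ± 0.07, adjusted p = 3.14e-05), and Gab1. The lncRNA gene Platr20 and Smoc1, a matrix protein gene, had 0.59 ± 0.06 (adjusted p = 9e-05) and 0.47 ± 0.05 (adjusted p = 8.21e-05). The amino acid transporter gene Slc38a4 was called at 0.35 ± 0.05 (adjusted p = 0.000285), with -0.090 centred on gene bodies and -0.060 after quantile normalization. Sall1, a zinc finger factor, was not called at 0.02 ± 0.06 (adjusted p = 0.769), but was called higher in epiblast at -0.42 centred on gene bodies and -0.45 after quantile normalization.

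The remaining leading genes of ExE were in none of the lists. Zfp977, a zinc finger gene, had 1.17, 0.873, 0.874 and 0.779 RPKM in epiblast and 4.60, 3.37, 1.88 and 2.33 RPKM in ExE (1.41 ± 0.10, adjusted p = 3.32e-05), and its promoter H3K4me3 was 1.65 and 10.8 RPKM. Zinc finger genes of this family occur in near-identical copies, so reads may have been divided among them. Tbx3, a T-box factor, had 0.436 to 1.04 RPKM in epiblast and 1.52 to 2.73 RPKM in ExE (1.31 ± 0.10, adjusted p = 3.76e-05). Slc13a4, a sulfate transporter gene, had 0.515 to 0.811 and 1.61 to 2.43 RPKM, Abcc2, an efflux transporter gene, had 0.465 to 0.536 and 1.40 to 1.82 RPKM, and Mir22hg, the host transcript of miR-22, had 0.481 to 1.03 and 1.67 to 2.62 RPKM. In all 5 the tissues were apart.

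By kind of gene, long non-coding genes made up a larger share of the calls in epiblast. Of the tested long non-coding genes 115 (5.77%) were called higher in epiblast and 1239 (62.1%) higher in ExE. Of the protein-coding genes 296 (2.78%) and 9128 (85.8%) were. The 115 had medians of 0.749 RPKM in epiblast and 0.401 RPKM in ExE, and the 296 had 0.807 and 0.484 RPKM. Among genes higher in ExE, the long non-coding ones had medians of 0.629 RPKM in epiblast and 0.930 RPKM in ExE. The protein-coding ones had 0.886 and 1.28 RPKM. With genes ordered by mean RPKM in 5 equal sets, calls higher in epiblast went from 175 in the lowest set to 9 in the highest. No test was made of the difference between kinds, and the part of level in it was not tested.

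Promoters were read in other antibody aliquots, 8 wild-type libraries each of H3K4me3, the mark of active promoters, and H3K27me3, the Polycomb mark of silent ones. Chromatin pools were divided among antibodies, so these libraries are not from independent embryos. Of 12635 promoters, H3K4me3 was called higher in ExE at 10.2% and higher in epiblast at 10.9%, and H3K27me3 at 14.5% and 11.8%. At the 411 genes whose bodies had more H3K36me3 in epiblast, promoter H3K4me3 was higher in epiblast at 252 (61.3%) and higher in ExE at 7. At the same 411, H3K27me3 was higher in ExE at 247 (60.1%) and higher in epiblast at 13. At the 10367 genes higher in ExE, the H3K4me3 counts were 1218 (11.7%) higher in ExE and 657 higher in epiblast, beside the background shares of 10.2% and 10.9%. Their H3K27me3 was higher in epiblast at 1336 (12.9%) and higher in ExE at 1076 (10.4%), near the background of 11.8% and 14.5%. With centring on gene bodies the shares at genes higher in epiblast were lower. There 795 of the 2680 (29.7%) had higher H3K4me3 in epiblast and 861 (32.1%) higher H3K27me3 in ExE. For the 1904 genes higher in ExE in that scaling, H3K4me3 was higher in ExE at 454 (23.8%) and higher in epiblast at 31. Their H3K27me3 was lower in ExE at 403 (21.2%) and higher at 103. Without centring the H3K4me3 calls fell to 895 in all, and the share of H3K27me3 calls that were higher in ExE went from 55.1% to 31.5%.

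Among the leading genes, promoter H3K4me3 differed in the same direction as the gene body at 10 of 10 genes of ExE and 9 of 10 of epiblast, Glyatl3 being the exception. Promoter H3K27me3 differed in the opposite direction at 5 of 10 and 8 of 10. For Cdx2, H3K4me3 was 14.2 RPKM in epiblast and 33.3 RPKM in ExE (1.32 ± 0.10 on the log2 scale, adjusted p = 1.09e-11), and H3K27me3 was 7.67 and 1.41 RPKM. For Tead4 the H3K27me3 values were 4.70 and 0.689 RPKM. For Pou5f1, H3K4me3 was 43.1 and 7.88 RPKM, and H3K27me3 was 0.908 and 1.33 RPKM. The visceral endoderm genes Apob and Cubn differed in H3K4me3, with 5.46 and 12.3 RPKM and 5.03 and 15.9 RPKM, but their H3K27me3 was at or under 0.448 RPKM in both tissues. Elf5 had little H3K4me3 within 1000 bp of its annotated start in either tissue, at 0.222 and 0.437 RPKM.

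The size of the tissue difference depended on the cross. Over gene bodies the B6/CAST median was 0.57 and the CAST/B6 median 0.29. In the test of the difference between crosses, 4691 gene bodies (37.1%) were called, 4372 with a larger value in B6/CAST and 319 with a larger value in CAST/B6, and the median was -0.25 (CAST/B6 minus B6/CAST). The number of calls depended on single libraries, while the median stayed at -0.29 to -0.22 when any 1 was left out. Without CAST/B6 ExE replicate 1 there were 0 calls in limma, with 5047 at an unadjusted p under 0.05 and a median of -0.25. There were 1498 without B6/CAST ExE replicate 1, and 2233 and 1759 without CAST/B6 epiblast replicates 1 and 2. The same crosses also differed in the share of signal inside regions and in the level ahead of gene starts given above, and the part of these in the call counts was not tested.

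Named genes showed both patterns. Apob had 2.10 in B6/CAST and 1.47 in CAST/B6, and Tbx3 1.78 and 0.85, the same direction at different sizes. Eomes had 0.63 and -0.01, and Spry4 0.48 and -0.23. Of the 411 genes higher in epiblast, 396 had a negative value in both crosses, with medians of -0.25 and -0.28. Fgf5 had -0.98 and -1.11, Pou5f1 -0.50 and -0.65 and Sfrp1 -0.24 and -0.27.

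The 4 matDKO/CAST libraries, 2 per tissue, gave the same comparison in embryos from mothers that lacked Dnmt3a and Dnmt3b in the oocyte, at lower depth, 2.09 to 5.61 M reads. In them 46.7% of gene bodies were called higher in ExE (5906) and 1.82% higher in epiblast (230), with a median of 0.31, in a fit of all 12 libraries that share a spread estimate. The total fell to 3936 without ExE replicate 3. Of the 10367 genes higher in wild-type ExE, 5806 (56.0%) were called in the same direction and 21 in the opposite one, and 95.2% had the same sign, beside 86.6% of all gene bodies with that sign. Of the 411 genes higher in wild-type epiblast, 147 (35.8%) were called in the same direction and 1 in the opposite one, with the same sign in 88.3%, beside 13.4% of all gene bodies. Fgf5 was at -0.98 ± 0.18 (adjusted p = 0.00403), Pou5f1 at -0.72 ± 0.15 (adjusted p = 0.0055) and Cdx2 at 0.83 ± 0.18 (adjusted p = 0.00748). Nanog, called in the wild type, had -0.13 ± 0.10 (adjusted p = 0.271) in matDKO/CAST.

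Over the regions, the comparison split by position. Of 24202 regions 8509 (35.2%) were called higher in ExE and 4148 (17.1%) higher in epiblast. Of the regions higher in ExE 737 (8.66%) lay outside annotated genes, and of those higher in epiblast 2451 (59.1%). Of these 2451, 1575 had a peak in 1 list only and 780 in both epiblast lists and no ExE list. The epiblast lists held 20842 and 17587 autosomal peaks and the ExE lists 13360 and 10505, so the 59.1% is not independent of how regions were chosen. Among 178 regions outside genes with a peak in all 4 lists, 47 were called higher in ExE and 13 higher in epiblast. Their median difference was 0.065. The share outside genes was 36.9% over all regions and 49.8% over those not called. Regions higher in ExE had a median length of 26 kb and those higher in epiblast of 5.5 kb. Without centring the shares outside genes were 6.20% of regions higher in ExE and 57.8% of those higher in epiblast, beside 38.0% of those not called. After quantile normalization they were 10.9% and 44.7%, beside 45.3% of those not called, so only the ExE share stood apart there. In the fit of 12 libraries they were 6.99% and 57.3%, beside 49.7%. All these settings used the same regions, so they cannot test how the choice of regions affects the contrast. The share of calls that were higher in ExE was 67.2%, and it was 41.7% without centring, 56.7% among regions of at least 5000 bp and 55.2% among regions with a mean of at least 1 RPKM.

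The 2451 regions outside genes that were higher in epiblast had low levels. Their medians were 0.693 RPKM in epiblast and 0.305 RPKM in ExE, against 0.443 and 0.442 RPKM in the inputs, so the epiblast median lay above and the ExE median below that of the input. In matDKO/CAST, which took no part in the calls, the medians were 0.547 and 0.325 RPKM, and epiblast lay above ExE in 84.6% of them, beside 70.1% of all regions outside genes and 69.4% of those outside genes that were not called. Regions with a peak in all 4 lists numbered 6040 and covered 336 Mb, with 2.95% outside genes and a median difference of 0.43. Regions with a peak in both epiblast lists and no ExE list numbered 2462, with 54.2% outside genes, and epiblast lay above ExE in matDKO/CAST in 86.7%, beside 48.7% of all regions. Those with a peak in both ExE lists and no epiblast list numbered 891, with 14.5% outside genes. Regions that touched a gene had a median difference of 0.25 and regions outside genes of -0.20.

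**Figure D5:**
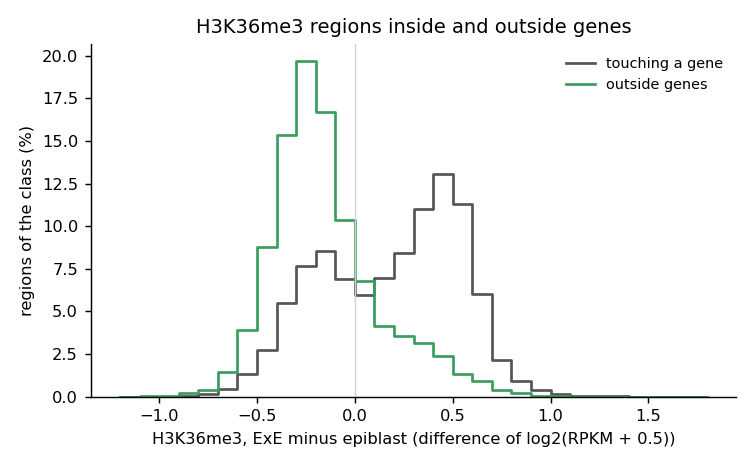
Share of regions (%, y axis) by their difference of log2(RPKM + 0.5), ExE minus epiblast (x axis, bins of 0.1), for 15260 regions that touch an annotated gene (grey) and 8942 outside genes (green). Regions outside genes centre left of 0 (median -0.20), and regions that touch a gene spread to the right (median 0.25).

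The called regions outside genes had median differences of -0.40 where higher in epiblast and 0.44 where higher in ExE, and the 3 longest in each direction, named for their length, mostly had smaller ones. The longest that was higher in epiblast, at chr1:30523001-30578000 with Gm9898 as the nearest gene, had 0.745, 0.740, 0.804 and 0.875 RPKM in epiblast and 0.368, 0.438, 0.481 and 0.480 RPKM in ExE. The tissues did not overlap (-0.31 ± 0.08, adjusted p = 0.0101), and the inputs had 0.446 and 0.461 RPKM. The regions nearest Gm8747 (chr3:3332001-3374000) and Gm2383 (chr1:12571501-12613000) had -0.32 ± 0.09 (adjusted p = 0.0131) and -0.20 ± 0.07 (adjusted p = 0.0316). Of those higher in ExE, the region nearest Tln2 (chr9:67590001-67625000) had 0.583 to 0.882 RPKM in epiblast and 0.701 to 0.786 RPKM in ExE, so the ranges overlapped before centring and the call (0.16 ± 0.06, adjusted p = 0.0474) rests on it. The regions nearest Gm18515 (chr10:97277501-97310500) and Pdgfd (chr9:6410501-6442500) had 0.49 ± 0.07 (adjusted p = 0.000741) and 0.25 ± 0.08 (adjusted p = 0.0247), and their RPKM ranges overlapped as well, at 0.354 to 0.658 in epiblast and 0.526 to 0.989 in ExE for the first and 0.511 to 0.599 and 0.541 to 0.747 for the second.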

How the data were processed

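H3K36me3, H3K4me3, H3K27me3 and input ChIP-seq libraries of mouse epiblast and ExE were used. The authors trimmed reads with Trim Galore (0.4.4 in the submitters' processing notes, a later version in the study's methods), aligned them with Bowtie2 2.3.2 to GRCm38 with strain variants masked, and deposited RPKM in 1 kb windows and peak coordinates called per cross and tissue with chromstaR. RPKM recovered 100% whole reads (tolerance 0.1), giving the depths stated. Counting error limits low windows. A count model was not the main test because the deposited unit is RPKM.

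Windows were averaged over regions and GENCODE gene bodies, weighted by overlap, with promoters read within 1000 bp (H3K4me3) or 2000 bp (H3K27me3) of the start. Log2(RPKM + 0.5) values were centred and fitted in limma 3.58.1 (R 4.3.3) with 4 means of cross and tissue and a mean-dependent prior, and called at an adjusted p under 0.05. The limma script was tested on simulated data. Python 3.11.15, pandas 2.3.3, NumPy 2.4.6 and matplotlib 3.10.9 did the rest. Shares and profiles were compared by exact permutation.

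Groups came from the labels. The members and the 17 gene lists were chosen with earlier results of these data known. Named genes were list members, the 10 largest differences per direction among called, non-overlapping genes with a mean of at least 1 RPKM in the higher tissue and no Gm or Rik symbol, and the 3 longest called regions outside genes per direction. Alternatives were other pseudocounts, filters, scalings, designs, a replicate block, voom on recovered reads, input subtraction and leaving out each library. One member of a gene list is counted but not reported here. Sex chromosomes and allele-specific reads were not used here.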

Additional observations from a re-analysis of the deposited data

Results flagged for a closer look

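In 164 groups of 4 libraries, 8 had 1 library far from the other 3, where chance alone gives about 1 in 20 groups. In epiblast these were Ldhb at 1.50 RPKM and Gab1 at 0.555 RPKM, both the lowest and both in B6/CAST replicate 2, Smad7 at 1.39 RPKM in B6/CAST replicate 1 and Cdkn1c at 0.929 RPKM in CAST/B6 replicate 2, both the highest. In ExE they were Smoc1 at 0.821 RPKM and Igf2 at 1.91 RPKM, both the highest and both in B6/CAST replicate 1, Bmp4 at 0.979 RPKM as the lowest in B6/CAST replicate 2 and Sall1 at 0.947 RPKM as the lowest in CAST/B6 replicate 1.

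The ExE minus epiblast difference itself differed between the crosses in 4691 gene bodies, none of which were called without CAST/B6 ExE replicate 1, where 5047 had an unadjusted p under 0.05. Of the 80 gene bodies named, 26 were among them, and the values below are the CAST/B6 minus the B6/CAST difference on the log2 scale. For genes higher in ExE they were -0.93 for Tbx3, -0.74 for Nsd1, -0.72 for Slc13a4, -0.64 for Peg10 and Eomes, -0.63 for Apob, -0.62 for Cubn, -0.59 for Setd2 and Sparc, -0.57 for Lama1, -0.50 for Fgfr4, -0.49 for Jade1, -0.41 for Smad6, -0.39 for Col4a1, -0.30 for Gab1 and -0.28 for Sfmbt2. For genes higher in epiblast they were -0.73 for Pmaip1, -0.72 for Fst, -0.71 for Idi1, -0.52 for Ldhb, -0.38 for Nanog and -0.37 for Tcf7l1, where the excess in epiblast was larger in CAST/B6, and Idi1 and Tcf7l1 lay at 0.013 and 0.035 in B6/CAST. Nodal, at 0.58, had a larger difference in B6/CAST. Mixl1 at -0.81, Spry4 at -0.71 and Sall1 at -0.55 had opposite signs in the crosses, as did Idi1, Tcf7l1 and Eomes. Eomes lay at 0.63 in B6/CAST and -0.0054 in CAST/B6.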

How the results depend on the processing

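The count of called regions (12657) fell to 1695 (935 higher in ExE, 760 higher in epiblast) among regions with a mean of at least 1 RPKM, where fewer regions were tested, and to 50 (47 and 3) with a difference of at least 1 required. The count of gene bodies (10778) fell to 5600 (5550 and 50) and 85 (83 and 2) by the same rules, and to 4381 after quantile normalization and 4584 centred on gene bodies, an alternative added after the data were seen. Promoter H3K4me3 calls fell from 2663 to 895 without centring, and the cause was not tested. Leaving out 1 library gave 0 to 5112 calls for the test between crosses, 3936 to 5742 for matDKO/CAST and 7.27 to 11.7 points for the share inside regions, where 3 against 4 libraries leave fewer splits. Sign reversed after quantile normalization for the called genes Dnmt3b (-0.15), Eomes (-0.24), Slc38a4 (-0.060), Zmynd11 (-0.20) and Actb (-0.047), and centred on gene bodies for Dnmt3b (-0.048), Eomes (-0.12), Slc38a4 (-0.090), Zmynd11 (-0.21) and Sox17 (-0.051). Of the genes that were not called, Dnmt3a, Mixl1, Spry4, Sall1 and Rpl15 turned to -0.31, -0.47, -0.40, -0.45 and -0.15 after quantile normalization and to -0.40, -0.42, -0.31, -0.42 and -0.044 centred on gene bodies, and the first 4 to -0.10, -0.13, -0.020 and -0.13 without centring. Leaving out 1 library gave -0.100 to 0.13 for Mixl1 and -0.031 to 0.069 for Sall1, and Sall1 was at -0.038 over the last part of the body. Of 1794 values of 80 genes in 23 settings, 1621 kept direction and side of the threshold, 119 lost and 26 gained a call in the same direction and these 28 reversed.

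The libraries were not treated as paired, since the labels do not tie the numbers to shared embryos and deviations of same-numbered epiblast and ExE libraries correlated at -0.0016 in B6/CAST and 0.0011 in CAST/B6, 1 value per cross, which does not settle their origin. With the number as a replicate block, 9001 regions and 9364 gene bodies were called. Without chromosomes 3 and 11, also added later, 11212 regions and 9343 gene bodies were called, with 66.4% and 96.0% of them higher in ExE.

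Depth limits the lowest windows: 1 read was worth up to 0.223 RPKM in epiblast. A spike-in was not used here, so a change in total mark cannot be told apart from a change in its distribution.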
